A study of Homo sapiens with 8 samples.

Results

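Transcript levels of 10 amino acid transporters of the plasma membrane were examined in RNA-sequencing counts of MOLM-13 cells, a human line of KMT2A-rearranged acute myeloid leukemia. The 10 genes were SLC7A11, SLC7A5, SLC7A1, SLC3A2, SLC1A4, SLC1A5, SLC6A9, SLC38A1, SLC38A2 and SLC43A1. They were taken by symbol from a count table of 38551 genes, for their shared function and with earlier results of the same table known. Cells of 4 libraries had received 100 nM PR-957 for 72 h, and cells of the other 4 libraries had received the diluent DMSO for 72 h. PR-957 (ONX-0914) blocks PSMB8, a proteolytic subunit of the immunoproteasome. The immunoproteasome is the form of the proteasome that is most abundant in blood and immune cells. Both groups were the same unmodified line, grown in RPMI with fetal bovine serum, and the 8 libraries were made from polyA RNA. The labels number the replicates but do not say whether they were separate cultures, so the p-values measure the spread between these samples, which may be technical. The question of the comparison was how inhibition of the immunoproteasome changes the transcripts of a KMT2A-rearranged leukemia.

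Amino acid transporters of the SLC families carry amino acids across the plasma membrane, either coupled to sodium or as exchangers that trade an amino acid inside the cell for another outside. The SLC7 carriers used here as light chains reach the surface as pairs with the glycoprotein SLC3A2 (CD98), their heavy chain. Many of these genes are known targets of ATF4, the transcription factor of the integrated stress response, which binds C/EBP-ATF response elements (CARE) in or near their promoters. Imported leucine, glutamine and arginine feed protein synthesis and the activation of mTORC1, and imported cystine feeds glutathione synthesis.

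The sequences of 5 promoter sites are shown first, because they hold the letters of a CARE, TGATGNAA on either strand, near an annotated start of 5 of the transporters. They come from RefSeq windows on GRCh38.p14 of 250 bases before and 50 bases after each annotated start. Of the 10 transporters, 9 matched 16 such windows, several of them with alternative starts. Each site is written 5′ to 3′ on the strand of the gene, and the capitals mark the 8 letters that match TGATGNAA or its reverse complement TTNCATCA.
SLC1A4: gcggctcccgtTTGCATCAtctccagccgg
SLC1A5: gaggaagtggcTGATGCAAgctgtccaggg
SLC38A1: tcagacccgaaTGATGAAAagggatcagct
SLC7A1: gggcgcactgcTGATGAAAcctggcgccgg
SLC3A2: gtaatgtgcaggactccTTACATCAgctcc
The site of SLC1A4 lies at chr2:64989381-64989410 on the plus strand and that of SLC3A2 at chr11:62881719-62881748 on the plus strand. The sites of SLC1A5 (chr19:46784893-46784922), SLC38A1 (chr12:46266502-46266531) and SLC7A1 (chr13:29595663-29595692) lie on the minus strand. Counted from the annotated start of the window, the matched letters began at base -97 for SLC1A5, -7 for SLC1A4 and -4 for SLC38A1. They began at base 8 for SLC7A1 and base 38 for SLC3A2. For SLC7A1 this start was the outer end of the annotated gene. For SLC1A4, SLC1A5, SLC38A1 and SLC3A2 it lay within the annotated gene, and their other windows held no match to the CARE letters. Which starts were in use was not tested. The letters were found in 5 of 9 transporters, and in 4.46% of 27305 genes with a window (3.62% of 35116 windows). A gene was counted if any of its windows matched. The 9 transporters had 16 windows, so shares per gene do not rest on equal numbers of windows. Among the 9912 genes tested here that had a window the share was 2.77%. It was 4.31% of those called lower (11.8% of the 211 called at least 2-fold lower), 2.16% of those called higher and 2.36% of those not called. Genes without a window were left out of these shares and of those for the motifs below. The shares thus cover 9912 of 13179 genes tested, and 211 of the 315 called at least 2-fold lower.

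A second motif, the E-box CACGTG, was found near an annotated start of 3 of the 9 transporters. It was found in 12.8% of genes tested and 8.77% of all genes with a window (7.26% of windows). It was present in 13.5% of genes called lower and 10.4% of those called at least 2-fold lower. Among genes called higher and genes not called, the E-box was present in 12.9% and 12.3%. It is shown for SLC7A5, the transporter with the most counts, in the 250 bases before its start at chr16:87869508-87869757 on the minus strand, with the E-box in capitals.
SLC7A5: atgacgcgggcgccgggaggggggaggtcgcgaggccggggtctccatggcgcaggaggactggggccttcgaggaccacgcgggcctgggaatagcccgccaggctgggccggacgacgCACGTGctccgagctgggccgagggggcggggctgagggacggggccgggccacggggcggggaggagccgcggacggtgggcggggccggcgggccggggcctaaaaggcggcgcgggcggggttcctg
An E-box was also found for SLC43A1 and SLC1A5, in both before an alternative start within the annotated gene. The core of an antioxidant response element, TGACNNNGC on either strand, was found for 4 of the 9 (SLC3A2, SLC7A1, SLC7A5 and SLC1A5). It was found in 19.6% of genes tested and 16.1% of all genes (13.3% of windows). It was present in 19.4% of genes called lower and 19.9% of those called at least 2-fold lower. Among genes called higher and genes not called, this core was present in 19.7% and 19.6%. At least 1 of the 3 motifs was present in 7 of the 9. None was found for SLC6A9, which had the largest fall, or for SLC38A2. SLC7A5 and SLC43A1 held no match to the CARE letters, and SLC7A11 had no window. No match overlapped another. A match of letters is a description of the sequence and was not tested for binding.

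Total counts per library ran from 16675036 to 23111223, so that 3 counts corresponded to between 0.131 and 0.188 CPM (counts scaled to a common library size, with TMM factors for composition). All 8 myeloid leukemia markers examined, among them SPI1, CD33, FLT3 and MPO, had a mean of at least 1 CPM, with a summed level of 1470 to 1540 CPM under DMSO and 1550 to 1620 CPM under PR-957. The sum hides opposite changes, with means of 175 and 506 CPM for MPO, 340.0 and 173 CPM for FLT3, 207 and 131 CPM for PTPRC (also placed on 1 other contig) and 14.4 and 9.4 CPM for HOXA9 under DMSO and PR-957. Their part in the levels of the transporters was not tested. Markers of T, B and erythroid cells all had means under 1 CPM, the highest single values being 1.23 CPM for KLF1 and 1.14 CPM for CD79A, with summed levels of 0.125 to 0.655 CPM, 0.78 to 1.27 CPM and 0.278 to 0.362 CPM under DMSO, and of 0 to 0.137 CPM, 0.887 to 1.55 CPM and 1.06 to 1.6 CPM under PR-957. KLF1 was called higher (log2 fold change 1.94, adjusted p = 0.000335, edgeR quasi-likelihood test). Of the epithelial markers KRT8 and KRT18 were expressed (summed 44.6 to 53.0 CPM and 28.8 to 40.3 CPM) while EPCAM and CDH1 were near 0, and of the fibroblast markers COL1A1 alone reached a mean of 1 CPM (summed 1.19 to 2.23 CPM and 1.31 to 2.31 CPM). The first principal component separated the treatments (58.3% of variance) and the second (13.3%) was above 0 for replicates 1 and 2 and below 0 for replicates 3 and 4 of either group, a split for which the labels give no reason.

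All 10 transporters were tested and all 10 were lower under PR-957 (adjusted p under 0.05 by the quasi-likelihood test of edgeR, Benjamini-Hochberg over 13179 genes). Among all genes tested, 46.6% were called in either direction and 23.5% were called lower. In all 10 the 4 PR-957 libraries lay below the 4 DMSO libraries, which was the case for 21.7% of genes tested. The fall was at least 1.5-fold in all 10, against 7% of genes tested, and at least 2-fold in 5 of them, against 2.39%. The median log2 fold change of the 10 was -0.996, beside 0.003 for all genes tested. Together the 10 genes took 0.231% ± 0.00902 (SD, n = 4) of all counts under DMSO and 0.110% ± 0.00359 (SD, n = 4) under PR-957, and their summed level was 2379 ± 122 and 1065 ± 28.7 CPM. In bulk RNA, a change in the share of cells that express a gene and a change in its RNA per cell cannot be told apart.

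**Figure D1:**
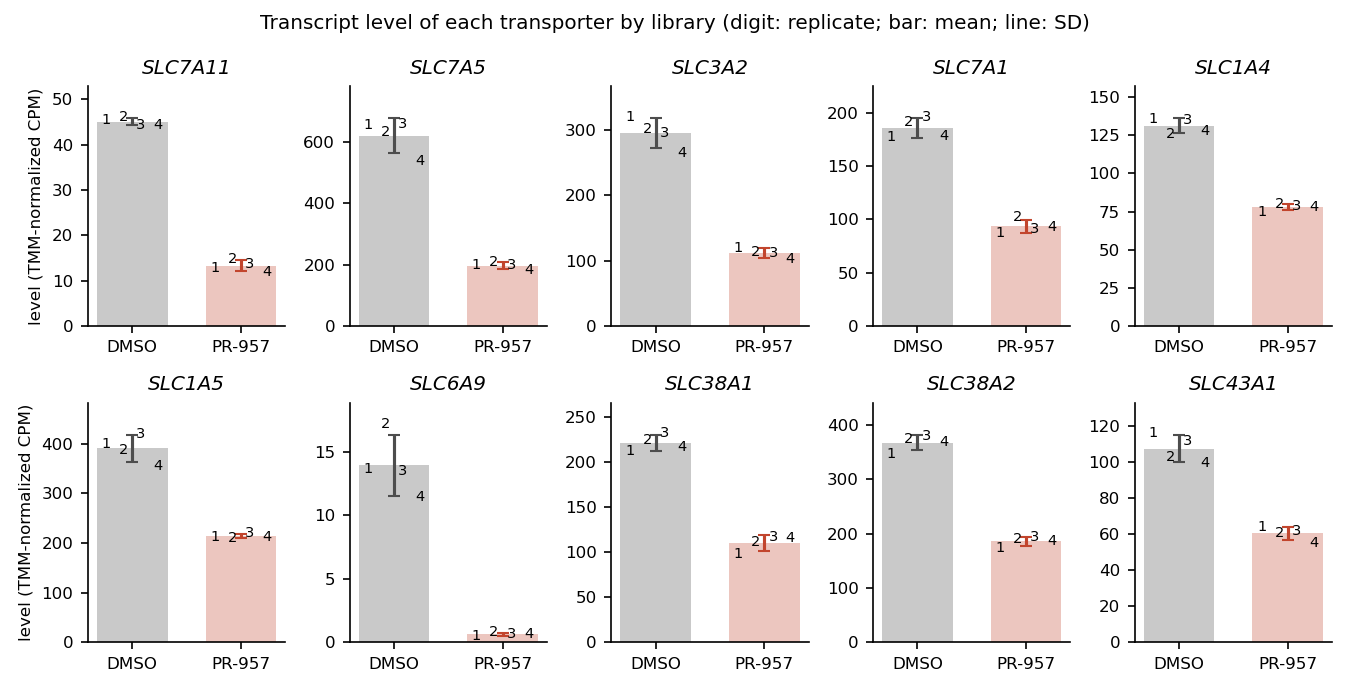
Transcript level of each of the 10 transporters in TMM-normalized CPM (y axes from 0), with each library drawn as its replicate number, the group mean as a bar and the SD as a line (n = 4 per group). In all 10 panels the PR-957 libraries sit below the DMSO libraries, and in SLC6A9 they are near 0 (0.501 to 0.783 CPM).

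The heavy chain SLC3A2 (chromosome 11, 62856109 to 62888860) was at 320.0, 301, 295 and 265 CPM in DMSO replicates 1 to 4 and at 120.0, 113, 112 and 102 CPM in PR-957 replicates 1 to 4. The groups were well apart, with replicate 4 the lowest of each. The mean fell from 295 ± 22.9 to 112 ± 7.65 CPM (SD, n = 4 each) (log2 fold change -1.40, SE 0.06, adjusted p = 2.1e-12, edgeR quasi-likelihood test).

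SLC7A5 (LAT1; chromosome 16, 87830022 to 87869507), the light chain that imports leucine and other large neutral amino acids, had the highest counts of the 10. It was at 657, 632, 659 and 539 CPM in the DMSO libraries and at 198, 209, 199 and 183 CPM in the PR-957 libraries. Every PR-957 library held less than the lowest DMSO library, DMSO replicate 4, by at least 2.58-fold. Its log2 fold change was -1.66 (SE 0.07, adjusted p = 2.36e-13, edgeR quasi-likelihood test), and its share of the counts of the 10 transporters went from 26.1% ± 1.12 to 18.6% ± 0.686 (SD, n = 4 each).

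SLC7A11 (xCT; chromosome 4, 138164097 to 138242349), the light chain that imports cystine in exchange for glutamate, was at 45.3, 46.0, 44.4 and 44.4 CPM under DMSO and at 12.8, 14.8, 13.7 and 11.9 CPM under PR-957. The DMSO libraries were closer to each other than for any other of the 10 genes (coefficient of variation 1.74%). The level under PR-957 was 29.6% of that under DMSO (log2 fold change -1.76, SE 0.08, adjusted p = 8.75e-13, edgeR quasi-likelihood test).

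Per kilobase of exon, SLC7A5 was the main light chain in both groups. It stood at 116 ± 10.5 CPM per kb under DMSO and 36.8 ± 2.00 CPM per kb under PR-957, against 107 ± 8.29 and 40.5 ± 2.77 CPM per kb for SLC3A2 (SD, n = 4). Levels of the other light chains were lower, with 4.6 and 1.36 CPM per kb for SLC7A11, 7.38 and 8.41 CPM per kb for SLC7A6 (y+LAT2) and 1.19 and 1.14 CPM per kb for SLC7A7 (y+LAT1). SLC7A8 and SLC7A10 did not pass the filter on low counts, with 10 and 2 counts in the 4 DMSO libraries together.

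The ratio of summed light chains to SLC3A2, per length, was 1.17, 1.21, 1.27 and 1.18 in the DMSO libraries and 1.09, 1.24, 1.18 and 1.22 in the PR-957 libraries. The groups overlapped, and the difference of -0.0227 was within their spread (exact permutation p = 0.600, two-sided, adjusted p = 0.657 over 4 ratios). The share of SLC7A11 in the sum of SLC7A11 and SLC7A5 was 3.84% ± 0.34 under DMSO and 3.55% ± 0.159 under PR-957, also with overlap (SD, n = 4, exact permutation p = 0.171, adjusted p = 0.342). The makeup of the light chains differed without overlap of the groups. SLC7A5 made up 88.8% to 90.8% of the summed light chains in the DMSO libraries and 76.1% to 77.6% in the PR-957 libraries, while SLC7A6 made up 4.98% to 6.38% and 17.2% to 18.3%. These shares were not tested. SLC7A6 itself was at 49.97 ± 5.38 and 57.0 ± 2.64 CPM, with overlapping groups. Its call as higher (log2 fold change 0.19, adjusted p = 0.0352, edgeR quasi-likelihood test) was lost in 7 of 19 alternatives, and 49.8% of its exon bases lie opposite SLC7A6OS.

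**Figure D2:**
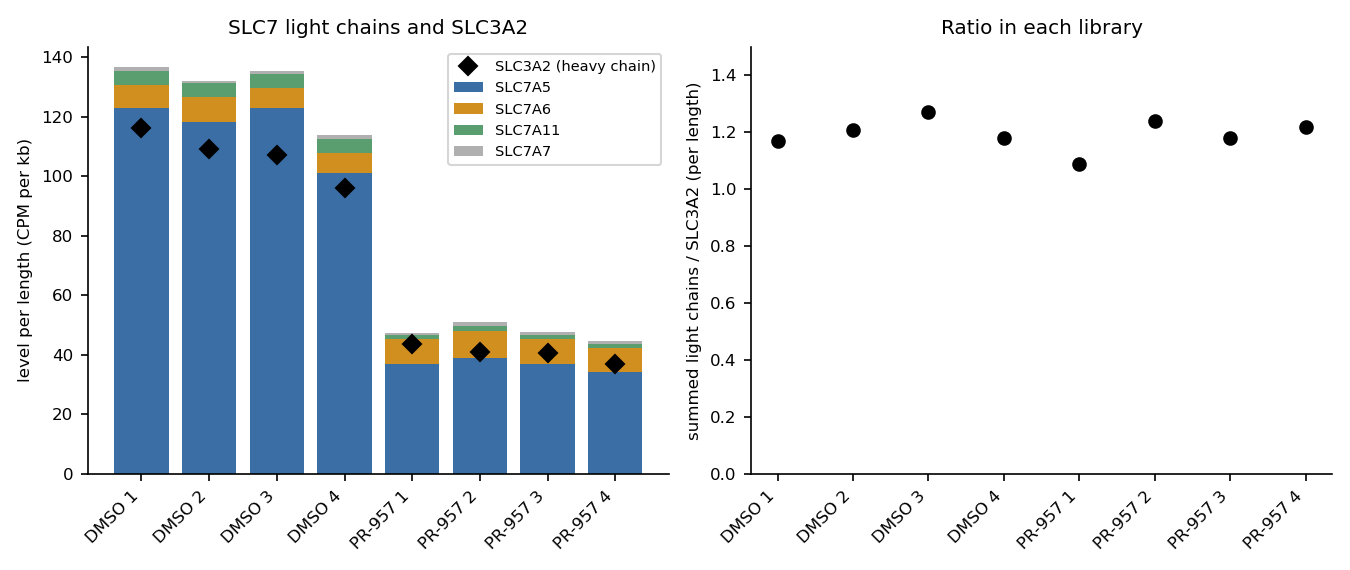
Left, level per length (CPM per kb of exon, y axis from 0) of the SLC7 light chains as stacked bars and of their heavy chain SLC3A2 as a diamond, in each of the 8 libraries. Right, the ratio of the summed light chains to SLC3A2 in the same libraries. Both bars and diamonds are lower in the 4 PR-957 libraries, and the ratio stays between 1.09 and 1.27.

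SLC7A1 (CAT1; chromosome 13, 29509410 to 29595688) carries arginine and lysine and needs no heavy chain. Its level was 177, 191, 196 and 178 CPM in the DMSO libraries and 87.6, 102, 91.0 and 92.7 CPM in the PR-957 libraries. The groups did not overlap, and the log2 fold change was -0.99 (SE 0.06, adjusted p = 1.2e-10, edgeR quasi-likelihood test). SLC7A2 (CAT2), another CAT carrier, was lower as well. It was at 77.6, 82.0, 80.4 and 69.6 CPM under DMSO and 37.0, 42.3, 36.2 and 35.2 CPM under PR-957 (log2 fold change -1.04, SE 0.07, adjusted p = 7.76e-10). SLC7A3, a further CAT carrier, had 0 counts in all libraries. The y+LAT light chains SLC7A6 and SLC7A7 described above were not called lower.

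Of the SLC1 family, SLC1A5 (ASCT2; chromosome 19, 46774883 to 46788594), a sodium-dependent exchanger that imports glutamine, was at 400.0, 386, 420.0 and 354 CPM in the DMSO libraries. Under PR-957 it was at 213, 210.0, 221 and 213 CPM, and the 4 libraries were closely grouped (coefficient of variation 2.12%) below all DMSO libraries. The log2 fold change was -0.87 (SE 0.06, adjusted p = 5.55e-10, edgeR quasi-likelihood test). SLC1A4 (ASCT1; chromosome 2, 64988479 to 65023865), which exchanges alanine, serine and cysteine, had the smallest fall of the 10, to 59.4% of its DMSO level. It was at 136, 126, 135 and 128 CPM under DMSO and at 75.0, 79.8, 78.9 and 77.7 CPM under PR-957 (log2 fold change -0.75, SE 0.05, adjusted p = 1.39e-09). The share of SLC1A4 in the sum of both, per length, was 18.4% ± 0.859 under DMSO and 19.6% ± 0.524 under PR-957, with overlapping groups (SD, n = 4, exact permutation p = 0.0857, two-sided, adjusted p = 0.342 over 4 ratios).

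The sodium-coupled carriers SLC38A1 (SNAT1; 46183063 to 46269149) and SLC38A2 (SNAT2; 46358188 to 46372774) take up glutamine, alanine and other small neutral amino acids. They are neighbors on chromosome 12, 89.0 kb apart with no gene of the table between them. SLC38A1 was at 213, 225, 233 and 217 CPM under DMSO and 97.9, 112, 117 and 116 CPM under PR-957. SLC38A2 was at 347, 374, 380.0 and 369 CPM under DMSO and 174, 190.0, 194 and 186 CPM under PR-957. In both genes replicate 1 was the lowest library of each group, and the groups were apart. The log2 fold change of SLC38A1 was -1.0 (SE 0.06, adjusted p = 1.57e-10) and that of SLC38A2 was -0.98 (SE 0.05, adjusted p = 3.54e-11, edgeR quasi-likelihood test). The share of SLC38A1 in the sum of the pair, per length, was 20.8% ± 0.313 and 20.5% ± 0.714 (SD, n = 4, exact permutation p = 0.657, adjusted p = 0.657).

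SLC6A9 (GlyT1; chromosome 1, 43996483 to 44031462), a sodium- and chloride-coupled glycine transporter, showed the largest fold change of the 10 and the 7th lowest log2 fold change of all 13179 genes tested. It had 217, 308, 224 and 260 counts in DMSO replicates 1 to 4 and 9, 15, 14 and 12 counts in PR-957 replicates 1 to 4. In CPM these were 13.6, 17.2, 13.5 and 11.4 against 0.501, 0.783, 0.639 and 0.675. The lowest DMSO library exceeded the highest PR-957 library 14.5-fold. The log2 fold change was -4.40 (SE 0.19, 95% interval -4.77 to -4.03, adjusted p = 6.44e-13, edgeR quasi-likelihood test). With a total of 50 counts in the PR-957 group the level was low but above the level of 3 counts in every library.

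SLC43A1 (LAT3; chromosome 11, 57484531 to 57516561), which carries leucine and other large neutral amino acids by facilitated diffusion and without SLC3A2, was at 116, 103, 112 and 99.5 CPM under DMSO. Under PR-957 it was at 64.0, 60.7, 62.1 and 55.1 CPM, below all DMSO libraries. Its log2 fold change was -0.83 (SE 0.06, adjusted p = 4e-09, edgeR quasi-likelihood test). The related carrier SLC43A2 had 5 counts in all DMSO libraries and 20 in all PR-957 libraries, too few to be tested. The table also places it on 1 other contig, and reads shared by both copies can go uncounted.

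**Figure D3:**
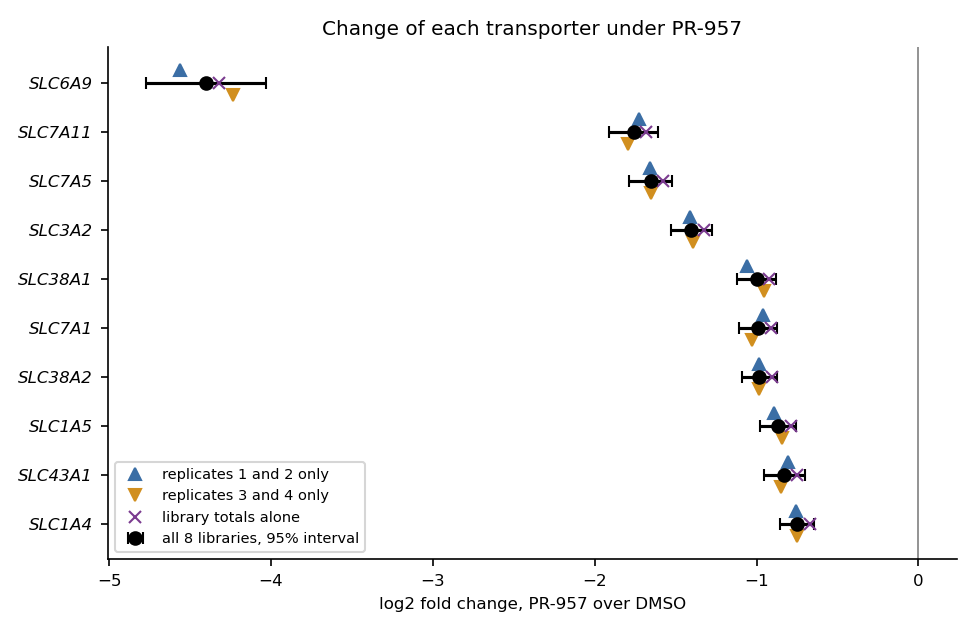
Log2 fold change of each transporter, PR-957 over DMSO (x axis, 0 marks no change). Black points and bars are the fit of all 8 libraries with its 95% interval, and the other symbols are fits of replicates 1 and 2 only, of replicates 3 and 4 only and with scaling by library totals alone. All symbols lie below 0, from -4.56 for SLC6A9 to -0.67 for SLC1A4.

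Within replicates 1 and 2 and within replicates 3 and 4, all 10 transporters had the same direction as in the whole set. The values were -1.73 and -1.79 for SLC7A11, -1.66 and -1.65 for SLC7A5, -4.56 and -4.23 for SLC6A9 and -1.06 and -0.95 for SLC38A1. DMSO replicate 4, the deepest library, was the lowest DMSO library for 5 of the 10 genes (SLC7A5, SLC3A2, SLC1A5, SLC6A9 and SLC43A1). All 10 remained below the threshold of an adjusted p of 0.05 in each of 19 alternatives.

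Compared per kilobase of exon under DMSO, SLC1A5 was at 124 ± 8.82, SLC7A5 at 116 ± 10.5 and SLC3A2 at 107 ± 8.29 CPM per kb (SD, n = 4), and neighbors in this order overlapped. SLC38A2 came next at 76.6 ± 3.01 CPM per kb and was separate from both sides. SLC43A1 (30.5 ± 2.12 CPM per kb) and SLC1A4 (27.9 ± 1.06 CPM per kb) overlapped, whereas SLC7A1 (24.8 ± 1.28 CPM per kb) and SLC38A1 (20.1 ± 0.781 CPM per kb) did not overlap with their neighbors. SLC7A11 (4.6 ± 0.0798 CPM per kb) and SLC6A9 (3.57 ± 0.617 CPM per kb) were the lowest. The order was changed under PR-957 in one place. SLC7A5, at 36.8 ± 2.00 CPM per kb, stood after SLC3A2 (40.5 ± 2.77 CPM per kb) and SLC38A2 (38.8 ± 1.75 CPM per kb), and neighbors among these overlapped, while SLC1A5 was alone at the top with 67.8 ± 1.44 CPM per kb. Among all genes tested, SLC1A5 ranked 418th by level per length under DMSO and 833rd under PR-957, and SLC6A9 ranked 7724th and 12615th.

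**Figure D4:**
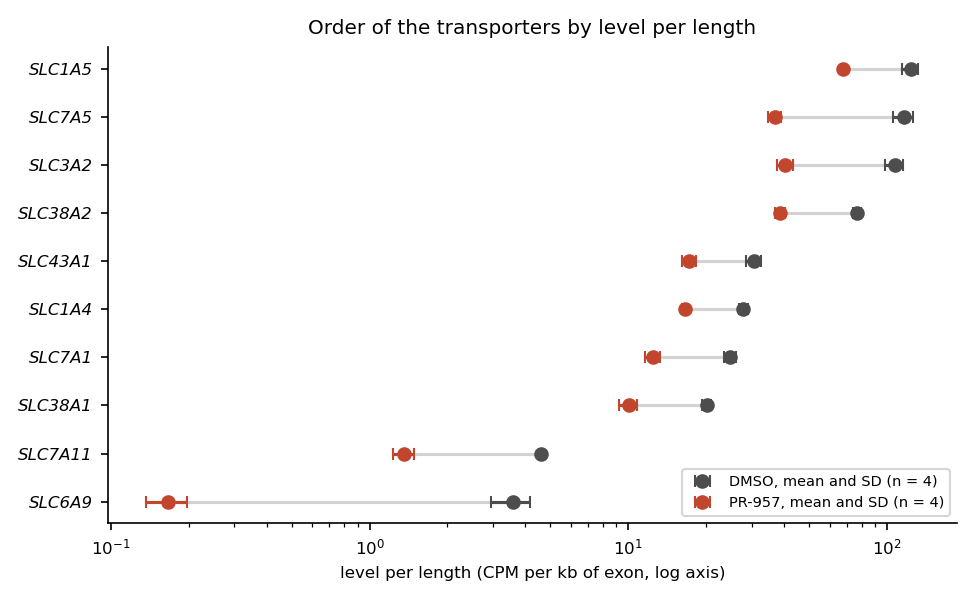
Level per length of the 10 transporters (CPM per kb of exon, log axis) under DMSO and PR-957, as mean and SD of 4 libraries, ordered by the DMSO level. All 10 points move to the left under PR-957, the least for SLC1A4 (27.9 to 16.6 CPM per kb) and the most for SLC6A9 (3.57 to 0.167 CPM per kb).

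For each transporter, the gene with the most similar pattern over the 8 libraries was sought among 11261 genes by Pearson's r of log2 CPM. It was STC2 for SLC7A11, CEBPG for SLC7A5, PHGDH for SLC3A2, PYGB for SLC7A1, SARS1 for SLC1A4, YARS1 for SLC1A5, TCEA1 for SLC6A9, UBASH3B for SLC38A1, USP22 for SLC38A2 and OPLAH for SLC43A1, with r between 0.997 and 1.000. PHGDH, the first enzyme of serine synthesis, went from 559 to 192 CPM (log2 fold change -1.54), and CEBPG, a partner of ATF4, from 241 to 147 CPM (-0.71). The seryl- and tyrosyl-tRNA synthetases SARS1 and YARS1 had log2 fold changes of -1.61 and -0.64. All 10 profiles follow the split into 2 groups (r of 0.980 to 0.995 with it), and between 572 and 779 genes had an r of at least 0.95 with each, so the likeness largely describes the difference between the groups. Among the transporters themselves, SLC7A5 and SLC3A2 were most alike to each other, as were SLC38A1 and SLC38A2 (r = 0.997 for both pairs) and SLC7A1 and SLC6A9 (r = 0.996).

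Among other amino acid transporters of the plasma membrane, more were called higher than lower. Of 32 listed, 9 were tested, 1 was lower and 6 were higher (23.1% of all genes tested were called higher), with a median log2 fold change of 0.38. The one that was lower was SLC7A2. SLC1A3, a glutamate and aspartate importer, rose from 6.14, 4.68, 8.21 and 6.60 CPM to 13.8, 13.2, 17.2 and 19.2 CPM (log2 fold change 1.31, SE 0.16, adjusted p = 5.32e-06, edgeR quasi-likelihood test). SLC16A10, a carrier of aromatic amino acids, rose at a low level from 2.30 ± 0.875 to 5.30 ± 1.47 CPM (1.18). SLC36A1 and SLC36A4, proton-coupled carriers, and the taurine transporter SLC6A6 had log2 fold changes of 0.73, 0.38 and 0.72, each without overlap of the groups, and SLC7A6 was the sixth. SLC38A5, a glutamine carrier related to SLC38A1, was at 58.3 ± 6.47 and 58.9 ± 6.88 CPM and was not called (adjusted p = 0.887). Of the 23 that were not tested, 11 had 0 counts in all 8 libraries.

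**Figure D5:**
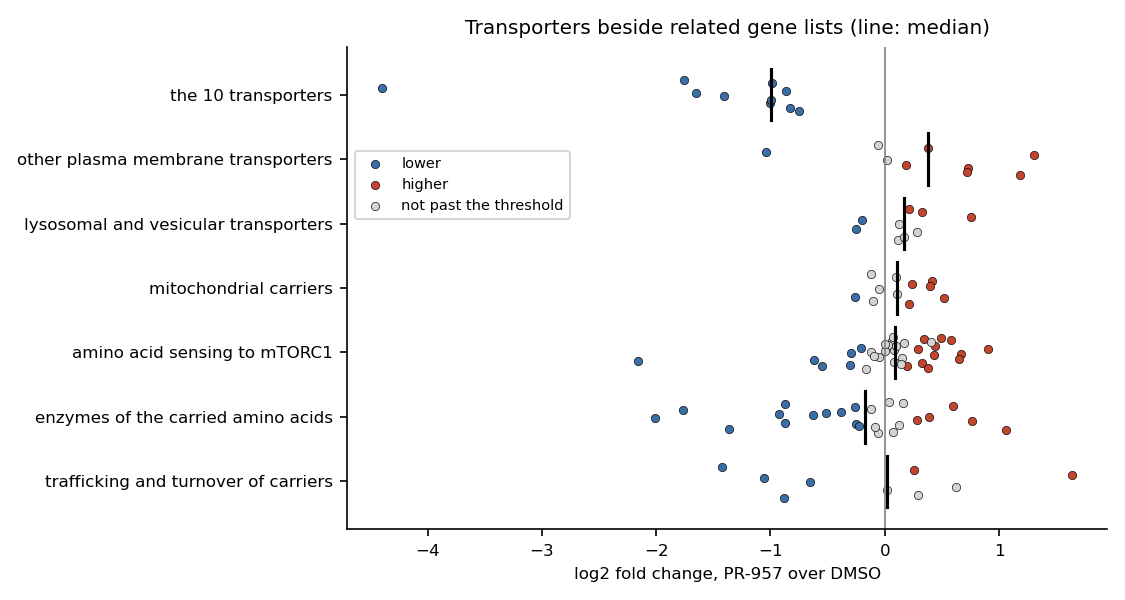
Log2 fold change (x axis, PR-957 over DMSO) of each tested gene in the 10 transporters and 6 related lists, one row per list, with the median as a black line and the color giving the call at an adjusted p under 0.05. The 10 transporters are all left of 0 with a median of -0.996, and the medians of the other lists run from -0.17 to 0.38. All lists were chosen with earlier results of these data known.

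Transporters of lysosomes and vesicles had mostly small changes. Of 9 tested, 2 were lower (22.2%) and 3 higher (33.3%), against 23.5% and 23.1% of all genes tested, with a median of 0.17. SLC38A7, a glutamine and asparagine exporter of lysosomes, rose from 8.46 ± 0.63 to 14.3 ± 0.994 CPM (log2 fold change 0.75, adjusted p = 6.91e-06, edgeR quasi-likelihood test), and SLC15A4, a histidine and peptide transporter, rose by 0.33. The calls of SLC66A1 (0.21), SLC38A9 (-0.25), the arginine sensor of the lysosome, and MFSD12 (-0.20) were lost in 8, 10 and 5 of 19 alternatives. Without PR-957 replicate 1 the value of SLC66A1 was 0.13. Of 11 mitochondrial carriers tested, 1 was lower (SFXN3, -0.26) and 5 were higher (9.09% and 45.5%, against 23.5% and 23.1% of all genes), with a median of 0.11. The largest increases were those of SLC25A44, a carrier of branched-chain amino acids (0.52), the glutamate carrier SLC25A22 (0.41) and SLC25A39, which imports glutathione (0.39). SFXN1 and SFXN2 were the other two, named after their values were seen, and 10.3% of the exon bases of SFXN2 are shared with WBP1L. The call of SFXN3 was lost in replicates 1 and 2 only.

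Genes that link amino acids to mTORC1 moved in both directions, with 6 lower (17.6%) and 12 higher (35.3%) of 34 tested, against 23.5% and 23.1% of all genes tested, and a median of 0.09. DDIT4 (REDD1), a stress-induced inhibitor of mTORC1, was the most changed. It was at 1040, 1090, 1220 and 1430 CPM in the DMSO libraries and at 269, 262, 269 and 270.0 CPM in the PR-957 libraries, so that the groups were far apart and the PR-957 libraries nearly equal (log2 fold change -2.16, SE 0.08, adjusted p = 6.2e-12, edgeR quasi-likelihood test). MLST8, a subunit of mTORC1, and FNIP1, a partner of folliculin, fell by 0.61 and 0.55 on the log2 scale. CASTOR2, a relative of the arginine sensor CASTOR1, rose by 0.90, the GATOR2 subunit SEC13 by 0.66 and SESN3, a sestrin, by 0.65, the last without a call in replicates 3 and 4 only (0.43). SESN2, the leucine sensor, had 8 counts under DMSO and 1 under PR-957 and was not tested. It too is placed on 1 other contig, so that a low count need not be a low level.

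Of 24 tested enzymes that make or use the carried amino acids, 12 were lower (50%) and 5 were higher (20.8%), against 23.5% and 23.1% of all genes tested, with a median of -0.17. ASS1, which joins citrulline and aspartate on the way to arginine, was at 1270, 1280, 1290 and 1060 CPM under DMSO and at 394, 397, 341 and 309 CPM under PR-957. The groups were apart, and DMSO replicate 4 was below the other DMSO libraries (log2 fold change -1.77, SE 0.09, adjusted p = 2.99e-10, edgeR quasi-likelihood test). GPT2, the mitochondrial alanine transaminase, fell from 147 ± 12.0 to 57.1 ± 1.64 CPM (-1.36). ASNS, the asparagine synthetase, was listed at 3.26 ± 0.659 and 0.805 ± 0.221 CPM (-2.01, adjusted p = 3.71e-06), but 67.6% of its exon bases are shared with the readthrough gene CZ1P-ASNS on the same strand, so that its level is uncertain. The 5 higher genes were the asparaginase ASRGL1 (1.06), the ornithine aminotransferase OAT (0.76), the argininosuccinate lyase ASL (0.60) and, named after their values were seen, GOT2 and GCSH.

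Of 9 genes for trafficking and turnover of carriers, 4 were lower (44.4%) and 2 higher (22.2%), against 23.5% and 23.1% of all genes tested, with a median of 0.02. TXNIP, an arrestin-like protein best known for removing glucose transporters from the surface, fell from 329, 288, 305 and 428 CPM to 113, 134, 127 and 129 CPM (log2 fold change -1.43, SE 0.12, adjusted p = 1.34e-05, edgeR quasi-likelihood test). Its relatives ARRDC4 and ARRDC3 fell by 1.06 and 0.88 on the log2 scale. The value of ARRDC3 rested on DMSO replicate 4, without which it was -0.45 (adjusted p = 0.0794), and the call was lost in 5 of 19 alternatives. NEDD4, a ubiquitin ligase of membrane proteins, was the fourth gene called lower (-0.65). LAPTM4B, which recruits SLC7A5 and SLC3A2 to lysosomes, was higher with overlapping groups (0.26, adjusted p = 0.00443), a call lost in replicates 3 and 4 only, and RNF5 was the second (1.64, at 0.635 and 2.01 CPM). RNF5 is also placed on 6 other contigs, so that its level and fold change are uncertain. NEDD4 and RNF5 were named after their values were seen.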

How the data were processed

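RNA-sequencing counts of 8 MOLM-13 libraries were used, 4 per group, with groups and replicate numbers from the sample titles. Per the submitters' processing notes, the authors used Trimmomatic 0.39 and STAR 2.7.10a on hg38, and per the file headers fragments were counted on the reverse strand with featureCounts 2.0.1 against RefSeq genes. No source used here gives whether the library kit kept the strand. The deposited values were raw counts, not normalized by the authors. The counting command named 16 libraries, of which 8 were in the table, and 6 gene rows held no values. A deposited table of the authors' own comparison (log2 fold changes and p-values) was not used.

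PR-957 and DMSO were compared by the two-sided quasi-likelihood test of edgeR 4.0.16 (R 4.3.3, robust, TMM, filterByExpr, no covariate) with Benjamini-Hochberg adjustment over 13179 genes. The SE is the absolute log2 fold change over the square root of F, and CPM are TMM-normalized. Level per length divides CPM by the exon length of the table. Each of 4 ratios was tested by an exact permutation test over 70 splits (smallest p 0.0286). The fit was tested on simulated data. The 95% interval of a log2 fold change takes in the spread between libraries, and the level of 3 counts covers counting error only. Replicates were checked for duplicate libraries by a chi-square comparison (lowest value 3.185 per gene), and all were kept.

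The 10 transporters and all lists were chosen with earlier results of these data known. Genes named were the 10 transporters, the up to 3 largest increases and decreases of each list (6 for the plasma membrane) past the threshold with an average log2 CPM of at least 1, and the gene most alike to each transporter. Alternatives were DESeq2 1.42.0, limma-voom (limma 3.58.1), other scalings and filters, the replicate number as a block, a 2-level batch term, replicates 1 and 2 or 3 and 4 only, and leaving out each library.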

Additional observations from a re-analysis of the deposited data

Results flagged for a closer look

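Each group of 4 libraries was examined for a single library that stood apart by Dixon's criterion for the 10 transporters, the other named genes and the ratios. Of 112 groups, 11 had such a library, where chance alone gives about 5.6. None was a group of the 10 transporters or of the 4 ratios. DMSO replicate 4 was the library in 5 of the 11. It was low for SLC25A39 (71.7 CPM, others 90.3 to 93.3), ASS1 (1060 CPM, others 1270 to 1290), CEBPG (227 CPM, others 244 to 248) and PHGDH (505 CPM, others 570.0 to 582), and high for ARRDC3 (8.13 CPM, others 3.38 to 3.70). DMSO replicate 2 was high for SLC36A1 (13.8 CPM, others 10.8 to 11.3) and ASNS (4.23 CPM, others 2.78 to 3.01). PR-957 replicate 2 was high for SLC7A6 (60.9 CPM, others 55.5 to 55.9) and TCEA1 (183 CPM, others 166 to 168). PR-957 replicate 1 was low for ARRDC4 (4.12 CPM, others 5.17 to 5.34) and SARS1 (61.8 CPM, others 69.8 to 70.8). The cause was not tested.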

How the results depend on the processing

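All 10 transporters were called lower in each of 19 alternatives, with log2 fold changes of -4.56 to -4.23 for SLC6A9 and -0.77 to -0.67 for SLC1A4, the ends of the range. Scaling by library totals alone gave 4066 increases and 2353 decreases over all genes, against 3045 and 3098, and the median over all genes moved by 0.078. The difference in the SLC38A1 share of the SLC38 pair, -0.237 percentage points in all libraries, became -0.832 within replicates 1 and 2 and 0.359 within replicates 3 and 4. The cause was not tested, and the difference passed no test with all libraries. The counts of genes called over the 6 other lists were 59 in all libraries and 63 with the replicate block, which left 10 transporters lower. Same-numbered libraries deviated together with correlations of 0.0886 to 0.2, the highest value of each DMSO library. PR-957 replicate 3, however, correlated best with DMSO replicate 4 (0.103). The correlations were low and the labels state no pairing, so the main fit did not pair the samples. With the replicate block, 6913 genes were called, against 6143 without it. For 8 of the other named genes, 38 values in all lost a call in an alternative, and 13 counts of calls in single lists fell by over 1.5 times. No log2 fold change of the 10 transporters or of these 8 genes changed sign. Without PR-957 replicate 1, the difference in the SLC38A1 share became 0.075 percentage points. That in the ratio of light chains to SLC3A2 became 0.00718, against -0.0227 in all libraries.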
